A study of Nematostella vectensis with 4 samples.

Results

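*Nvwnt2* is the Wnt ligand gene NV2g003168000.1 of the sea anemone *Nematostella vectensis*, and it is 1 of 24526 genes counted in single cells of the gastrula. It was taken by its ID, the one the study lists for trunk ectoderm, the body wall midway along the oral-aboral (O-A) axis. Cells of whole embryos at 24 h post fertilization (hpf) came from 1 pool, which was split over 4 technical replicate libraries of the droplet method of 10x Genomics. The labels name no treatment or genotype, so there is 1 group, and the spread between replicates is technical. Counts are of unique molecular identifiers (UMIs), each of which marks 1 captured transcript.

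Wnt ligands are secreted proteins that bind Frizzled receptors, and in the canonical pathway this keeps β-catenin from being degraded. In cnidarian embryos Wnt genes are expressed in staggered domains along the O-A axis, and β-catenin signaling is known to set oral identity. The ectoderm of the *Nematostella* gastrula also holds cnidocytes (stinging cells), gland cells, neurons and their progenitors, and the cells at the oral opening move inward as mesoendoderm. Markers of these populations were taken from the study's list.

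The study reduced *Nvwnt2* in other embryos with a short hairpin RNA. The DNA form of that hairpin, without its promoter for transcription, is shown because it is the sequence with which the study perturbed this gene. Capitals mark the 2 arms of 20 bases, each the reverse complement of the other, of which 9 bases are G or C. The loop of 7 bases and the tail of 2 bases are in lower case.
Nvwnt2 shRNA hairpin: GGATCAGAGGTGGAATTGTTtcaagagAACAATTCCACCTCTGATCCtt

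The 4 libraries held 2686 to 8523 barcodes and 22980631 to 56880930 UMIs. Of 18779 barcodes, 16089 had at least 500 genes and are called cells here. Replicate 4 stood apart, with 7234 cells at a median of 2267 UMIs, against 2268 to 3680 cells at medians of 4986 to 6555.5 UMIs in replicates 1 to 3. Between libraries 38 barcodes were shared, and 1 of them was in 3 libraries. Of the cells, 16, 16, 8 and 25 in replicates 1 to 4 had such a barcode. Leaving them out changed none of the marker calls below.

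*Nvwnt2* was detected in 30.7% ± 1.27 of cells (SD, n = 4), at a similar level in each library. In replicates 1 to 4 it had 7485, 3814, 3701 and 10297 UMIs in cells. These are 167, 154, 163 and 184 UMIs per 1000000 UMIs (CPM), with a mean of 167 ± 12.4 CPM (SD, n = 4). Only 700 to 815 genes of a library had more UMIs than *Nvwnt2*. At least 1 *Nvwnt2* UMI was found in 32.3%, 30.9%, 30.5% and 29.3% of cells of replicates 1 to 4. The exact binomial (Clopper-Pearson) 95% intervals ran from 28.2% to 33.9% over the 4 libraries, and cover counting error only. The libraries were therefore close in both measures, and replicate 4 had the highest CPM with the lowest share.

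Detection followed the depth of the cell. Cells with an *Nvwnt2* UMI had median totals of 9829, 6379, 7560 and 5042 UMIs in replicates 1 to 4, against 4392, 3981, 3924 and 1787 UMIs for cells without one. Each cell was therefore thinned at random to 1000 UMIs, and 14172 cells reached this number. The others numbered 252, 209, 190 and 1266 in replicates 1 to 4. After thinning *Nvwnt2* was detected in 12.9%, 14.4%, 12.9% and 15.0% of cells (13.8% ± 1.05, SD, n = 4), and these 1993 cells are called *Nvwnt2*-positive. The 12179 other cells are called *Nvwnt2*-negative, although a cell with few transcripts can lose them all by thinning. Median depth before thinning was then 7926.5, 5673.5, 5868 and 3179.5 UMIs in *Nvwnt2*-positive cells, against 7169, 5260.5, 6071 and 3048.5 UMIs in *Nvwnt2*-negative cells. The gap in depth was small in each library, and in replicate 3 it ran the other way. Mitochondrial shares were close too, with medians of 0.804% to 1.22% in *Nvwnt2*-positive cells and 0.738% to 1.16% in *Nvwnt2*-negative cells.

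**Figure D1:**
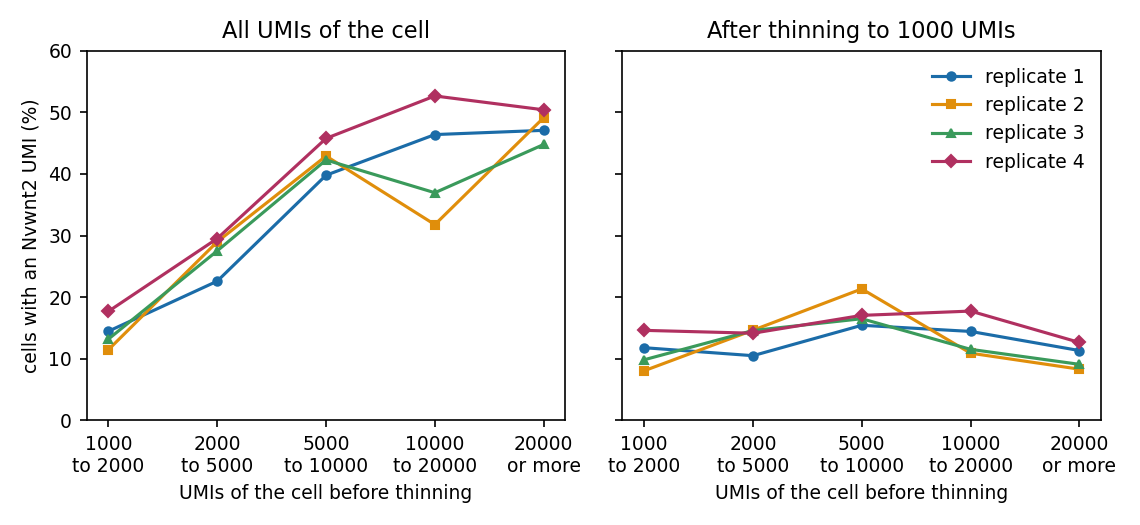
Share of cells with an *Nvwnt2* UMI (y axis, percent) by the number of UMIs of the cell before thinning (x axis, 5 ranges), with 1 line per library. Before thinning (left) the share was 11.5% to 17.7% in cells of 1000 to 2000 UMIs and 44.8% to 50.4% in cells of 20000 or more. After thinning to 1000 UMIs (right) it was 8.05% to 14.6% and 8.30% to 12.6% in the same cells.

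Thinning removed most of the relation with depth. In replicates 1 to 3 the thinned share was highest in cells of 5000 to 10000 UMIs, at 15.4%, 21.3% and 16.5%. In replicate 4 it was highest at 10000 to 20000 UMIs, at 17.7%. The deepest cells, of 20000 or more UMIs, had thinned shares of 11.3%, 8.30%, 9.09% and 12.6%. In the same deep cells *NvsnailA*, a transcription factor gene that marks mesoendoderm, was detected in 8.14%, 9.34%, 7.07% and 7.06%, the highest of the 5 depth ranges in each library.

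Counts per thinned cell were low, with most *Nvwnt2*-positive cells at 1 UMI. Of all thinned cells 10.1% ± 1.15 (SD, n = 4) had 1 UMI, 2.75% ± 0.399 had 2, and 0.954% ± 0.238 had 3 or more. The cells with 3 or more numbered 131 and held 17.0% ± 4.53 of the thinned *Nvwnt2* UMIs. The highest value in a thinned cell was 5, 5, 6 and 5 UMIs in replicates 1 to 4. Before thinning the highest was 74, 53, 92 and 84 UMIs.

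The mean was 0.175, 0.195, 0.185 and 0.195 UMIs per thinned cell, and the variance over the mean was 1.50, 1.48, 1.68 and 1.42. A Poisson count, with the same rate in every cell, has a ratio near 1. It would leave 82.3% to 83.9% of cells at 0, and 85.0% to 87.1% were at 0. Cells thus differed in their *Nvwnt2* level by more than the sampling of UMIs gives. These counts cannot tell a continuous grade from classes of cells with different levels.

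To see where *Nvwnt2* was high, cells were clustered on variable genes from which *Nvwnt2* and the other markers had been removed. This gave 19 clusters of 13792 cells, after 1988 cells of low-quality clusters were set aside. A cluster received a cell type name only where at least 3 listed markers stood 5-fold above the other cells, and clusters 7 (progenitor-like) and 8 (neuron-like) met this. The other clusters keep their numbers. The clusters were built from the same cells, so the levels below are a description without a test.

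*Nvwnt2* was concentrated in cluster 1. Cluster 1 had 550.4, 514, 526 and 547 CPM of *Nvwnt2* in replicates 1 to 4 (535 ± 17.2, SD, n = 4), the highest of the 13 clusters with at least 10 cells in each library. It held 2285 cells, or 18.6% ± 5.29 of the clustered cells, and 55.1% ± 6.55 of their *Nvwnt2* UMIs. An *Nvwnt2* UMI was found in 83.5%, 79.8%, 78.7% and 82.0% of its cells, and after thinning in 35.7%, 42.1%, 35.1% and 39.4%. *Nvwnt2* was the only listed marker above the other cells there, at 5.77-fold, and the fold of NV2g011441000.1 was 0.111. *Nvmyc1*, a transcription factor gene listed for progenitors, was nearest to the other cells among the rest, at 0.877-fold. Trunk ectoderm has this 1 listed marker, so cluster 1 was given no cell type name.

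The next clusters in order were cluster 2 at 175 ± 26.7 CPM, cluster 7 (progenitor-like) at 165 ± 14.7 CPM, cluster 10 at 162 ± 44.7 CPM and cluster 3 at 123 ± 30.8 CPM. Cluster 10 held 56, 29, 17 and 408 cells of replicates 1 to 4, at median depths of 49394, 25137, 30767 and 2680.5 UMIs. Cluster 3 held 138, 128, 116 and 1037 cells. The means and SDs of clusters 10 and 3 thus join libraries of unlike make-up. No library of cluster 2 came above 211 CPM, so it was apart from cluster 1. From cluster 2 down to cluster 5 the library values of each neighboring pair overlapped. The progenitor-like cells, in which *Nvath-like*, *Nvmyc1* and *Nvnanos* stood 13.2-fold, 9.30-fold and 18.1-fold above the other cells, had 155, 176, 179 and 150 CPM of *Nvwnt2*.

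Neuron-like cells had the largest SD between libraries of these 13 clusters, 63.5 CPM around a mean of 84.3 CPM. They had 22.7, 47.2, 166 and 101 CPM of *Nvwnt2* in replicates 1 to 4, from 22, 28, 117 and 159 UMIs. Replicate 3 lay within the range of the progenitor-like cells, and the other 3 lay under it. After thinning, 2.08%, 0%, 5.26% and 11.1% of neuron-like cells had an *Nvwnt2* UMI. The 0 is of 72 cells, which allows a share of up to about 4.17%. This limit is a rule of thumb, 3 over the number of cells, and not an exact interval.

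The clusters lowest in *Nvwnt2* carried markers of other populations. Cluster 11, with *Nvncol1* at 91.5-fold, had 70.1 ± 29.1 CPM of *Nvwnt2*. Cluster 6, with *Nvmucin* at 198-fold, had 63.6 ± 38.6 CPM, and cluster 9, with *Nvncol3* at 22.5-fold, had 52.1 ± 30.6 CPM. Cluster 5, with NV2g011441000.1 at 43.0-fold, had 25.9, 21.3, 19.5 and 53.6 CPM, and replicate 4 was the highest. Cluster 4, with *NvsnailA* at 8.98-fold, had 12.8, 11.3, 8.32 and 11.8 CPM, all under the values of cluster 5.

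In cluster 4, 1.73% ± 0.624 of thinned cells had an *Nvwnt2* UMI, against 38.1% ± 3.28 in cluster 1. The median depths of these clusters were 23585 and 7531 UMIs. Free RNA in the droplets can give such low shares in cells that do not express a gene, and its part was not tested. Cluster 13, with 133 cells and *Nvncol3* at 20.6-fold, had 0, 0, 1 and 12 *Nvwnt2* UMIs. After thinning none of 120 of its cells had one, which allows a share of up to about 2.50% by the same rule of thumb.

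**Figure D2:**
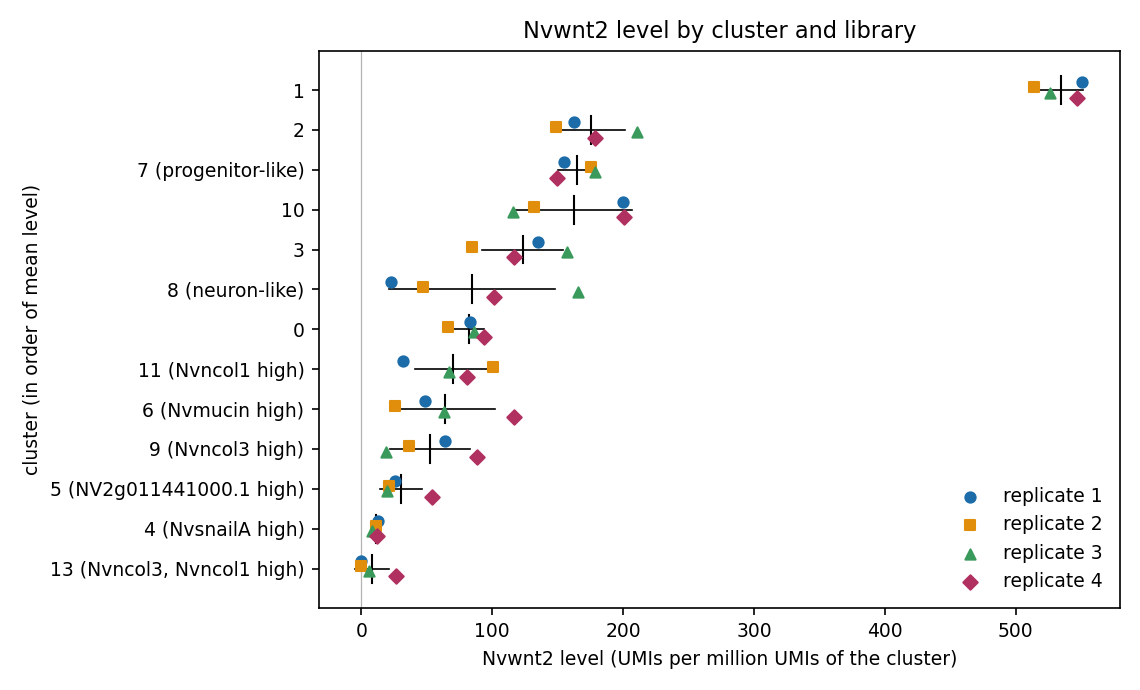
Level of *Nvwnt2* (x axis, CPM of the cluster) in the 13 clusters with at least 10 cells in each library (y axis), ordered by mean. Points are the 4 libraries, vertical bars the mean and horizontal bars the SD. Cluster 1 lies at 514 to 550.4 CPM, apart from cluster 2 at 149 to 211 CPM, and clusters 5 and 4 lie near the low end.

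A pair of small clusters of uneven make-up also had high levels. Cluster 12, with 163 cells of which 142 were of replicate 4, had 332, 224, 433 and 512 CPM in replicates 1 to 4. Cluster 17 had 40 cells, of which 39 were of replicate 4, and 475 CPM there. The cells of the low-quality clusters had 267, 239, 356 and 371 CPM of *Nvwnt2*, above those of cluster 2, at median depths of 1095 to 1329 UMIs.

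Counts also varied within cluster 1. After thinning 61.9% ± 3.28 (SD, n = 4) of them had 0 *Nvwnt2* UMIs, 24.8% had 1, 9.82% had 2 and 3.49% had 3 or more. The variance over the mean was 1.33, 1.17, 1.38 and 1.30 in replicates 1 to 4, against 1.50, 1.48, 1.68 and 1.42 for all cells. The values in cluster 1 stayed above 1 in each library. A Poisson count of the same mean would leave 58.9%, 54.8%, 59.4% and 55.6% of its cells at 0 in replicates 1 to 4. Observed were 64.3%, 57.9%, 64.9% and 60.6%. This excess over sampling was modest, and it cannot tell a grade from classes of cells. In cluster 5 the variance over the mean was 0.978 to 1.15. Cluster 5 had 0.0134 to 0.0756 *Nvwnt2* UMIs per thinned cell, too few for the ratio to show a spread, so the clusters cannot be compared on it.

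**Figure D3:**
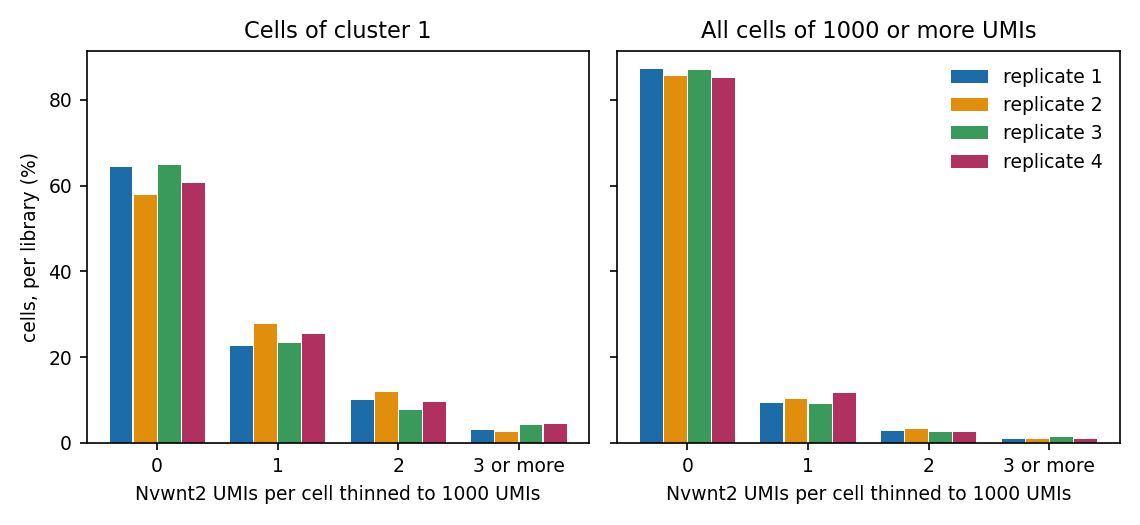
Share of cells (y axis, percent of the cells of each library) with 0, 1, 2 or at least 3 *Nvwnt2* UMIs after thinning to 1000 UMIs (x axis), in cluster 1 (left) and in all cells (right), with 1 bar per library. In cluster 1, 57.9% to 64.9% of cells are at 0, against 85.0% to 87.1% of all cells.

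Joint detection was then compared at the depth of 1000 UMIs. NV2g011441000.1, which the study lists both for aboral and for pharyngeal ectoderm under different names and which is called by its ID for this reason, shared few cells with *Nvwnt2*. It was detected in 0.679%, 0.258%, 1.12% and 2.80% of *Nvwnt2*-positive cells of replicates 1 to 4, against 4.66%, 3.90%, 5.58% and 5.68% of *Nvwnt2*-negative cells. Every *Nvwnt2*-positive value lay under every *Nvwnt2*-negative value. The joint cells numbered 3, 1, 3 and 25, where the product of the shares gives 18.3, 13.1, 13.5 and 46.9. The ratio of observed to product number was 0.164, 0.0764, 0.223 and 0.533, so replicate 4 was nearest to 1.

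The joint cells were shallow, with median totals of 2535, 1262, 2188 and 1706 UMIs, against 7962, 5675, 5904 and 3235 UMIs for cells with *Nvwnt2* alone. The part of depth in joint detection was not tested beyond thinning. Among cells with NV2g011441000.1, 2.11%, 1.10%, 2.88% and 7.99% had an *Nvwnt2* UMI, against 13.4%, 14.8%, 13.5% and 15.4% of the other cells. The share with NV2g011441000.1 was 1.40% ± 1.20 (SD, n = 4) in cells with 1 *Nvwnt2* UMI, 0.784% ± 0.998 with 2 and 0.455% ± 0.909 with 3 or more, against 4.95% ± 0.842 with 0. The values above 0 UMIs overlap, and the last step rests on 1 joint cell of 131.

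*NvsnailA* was detected in 1.58%, 0%, 0.743% and 2.01% of *Nvwnt2*-positive cells, against 2.55%, 2.68%, 2.76% and 4.20% of *Nvwnt2*-negative cells. The 0 is of 388 cells, which allows a share of up to about 0.773% by the rule of thumb used above. There were 27 joint cells, where the product of the shares gives 61.0. Joint cells of *NvsnailA* were the fewest in replicate 2 (0) and the most in replicate 4 (18).

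The remaining markers followed by class. *Nvncol3* and *Nvncol1*, which encode minicollagens of the stinging capsule of cnidocytes, shared 331 and 12 cells with *Nvwnt2*, where 447 and 32.1 were given by the product. *Nvmucin*, a mucin gene listed for gland cells, shared 36 cells, where 66.3 were given. Of the neuronal markers, *Nvelav*, an RNA-binding protein gene, shared 31 cells where 53.1 were given. *NvLWamide*, a neuropeptide gene, shared 60 where 86.4 were given, and *NvashA*, a proneural transcription factor gene, shared 32 where 58.2 were given.

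*NvLWamide* showed how far replicate 4 stood apart. Its ratio of observed to product number was 0.198, 0.0869 and 0.368 in replicates 1 to 3 and 1.03 in replicate 4. The joint cells of replicate 4 numbered 53, at a median of 2426 UMIs, against 3, 1 and 3 in replicates 1 to 3.

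Of the progenitor markers, *Nvath-like*, a gene of the atonal family of transcription factors, shared 33 cells where 57.6 were given. *Nvmyc1* shared 44 cells where 44.7 were given, and *Nvnanos*, which encodes a translational repressor of stem and germ cells, shared 19 where 23.6 were given. For *Nvmyc1* the share was 1.96% ± 0.750 in *Nvwnt2*-positive cells and 2.23% ± 0.384 in *Nvwnt2*-negative cells (SD, n = 4 each).

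The share was lower in *Nvwnt2*-positive cells in 4 of 4 libraries for 8 of the 11 markers, and in 3 of 4 for *NvLWamide*, *Nvmyc1* and *Nvnanos*. In a two-sided exact permutation test of the shares of 4 libraries against 4, the smallest p the design allows is 0.0286. NV2g011441000.1, *NvsnailA*, *Nvmucin* and *Nvath-like* reached it. Adjusted over the 11 comparisons by Benjamini-Hochberg their exact p was 0.0786, so none of the 11 passed 0.05. The exact p of the others ran from 0.0571 for *Nvncol1* to 0.657 for *Nvnanos*. With libraries as pairs, 4 pairs cannot reach 0.05. With cells thinned to 2000 UMIs 7 of the 11 passed the adjusted threshold, and with a minimum of 2 *Nvwnt2* UMIs 8 passed, each of them lower in *Nvwnt2*-positive cells. A marker at the smallest p can pass the adjustment only if enough others reach it too. Both the failures and the passes therefore depend on how many markers tie, and say little about a single marker.

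Without thinning, when *Nvwnt2*-positive cells were the deeper ones, NV2g011441000.1 was in 7.64% of *Nvwnt2*-positive cells and 10.5% of *Nvwnt2*-negative cells. *Nvmyc1* was then in 14.6% of *Nvwnt2*-positive cells and 7.80% of *Nvwnt2*-negative cells. The unthinned share was higher in *Nvwnt2*-positive cells for 6 of the 11 markers, and none of these 6 passed when adjusted over the 11 exact permutation tests.

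**Figure D4:**
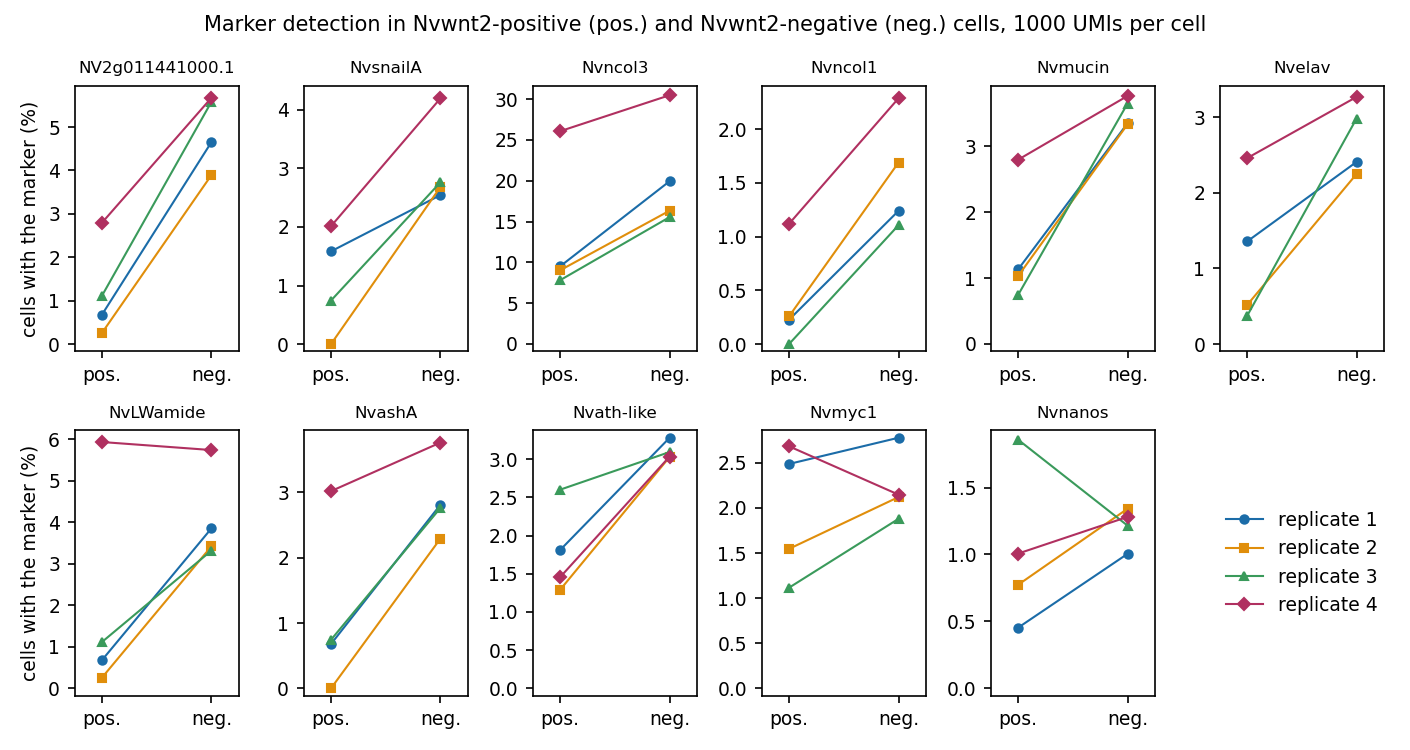
Share of cells with a UMI of each of 11 markers (y axes, percent) in *Nvwnt2*-positive (left) and *Nvwnt2*-negative (right) cells, all thinned to 1000 UMIs, with 1 line per library. NV2g011441000.1 was at 0.258% to 2.80% in *Nvwnt2*-positive cells, against 3.90% to 5.68% in *Nvwnt2*-negative cells, and *Nvmyc1* and *Nvnanos* overlap.

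Levels were tested next, since a level uses every UMI of a marker. UMIs of *Nvwnt2*-positive and of *Nvwnt2*-negative cells were summed per library, *Nvwnt2* was left out, and edgeR's quasi-likelihood test was applied to these sums over all genes. Of 10788 genes tested, 17.8% changed at an adjusted p under 0.05. These were 764 genes (7.08%) higher and 1152 genes (10.7%) lower in *Nvwnt2*-positive cells. None of the 11 markers was higher and 7 were lower, and their median log2 fold change was -1.30, against 0.00 for all genes. The levels of 8 markers did not overlap between the groups, being lower in *Nvwnt2*-positive cells, against 13.2% of all genes tested.

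NV2g011441000.1 was lower in *Nvwnt2*-positive cells. It had 6.80, 5.16, 22.3 and 29.1 CPM in *Nvwnt2*-positive cells of replicates 1 to 4, against 66.6, 66.2, 96.7 and 84.2 CPM in *Nvwnt2*-negative cells. The groups were apart, and replicates 3 and 4 were the higher of the *Nvwnt2*-positive values. The log2 fold change was -2.13 ± 0.31 (standard error), at an adjusted p of 4.65e-04 by edgeR. It passed in each of 19 alternatives, at a log2 fold change of -3.06 to -0.66. Without replicate 4 it was -2.91.

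*Nvncol3* had 249, 374, 231 and 812 CPM in *Nvwnt2*-positive cells, against 2259, 2116, 2012 and 2593 CPM in *Nvwnt2*-negative cells. The groups were apart, with a log2 fold change of -2.40 ± 0.29 and an adjusted p of 1.52e-04 by edgeR. Its share of cells differed less, at 13.1% ± 8.67 in *Nvwnt2*-positive and 20.6% ± 6.88 in *Nvwnt2*-negative cells (exact permutation p = 0.229). The *Nvwnt2*-positive cells that had *Nvncol3* thus had few UMIs of it.

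*Nvncol1* was also lower, with 1, 1, 0 and 13 UMIs in *Nvwnt2*-positive cells and a log2 fold change of -2.12 ± 0.52 (edgeR adjusted p = 0.0116). Without replicate 2 its call was lost, at a log2 fold change of -1.78 and an adjusted p of 0.0769, and likewise with cells thinned to 500 UMIs, at -1.57 and 0.145. Without replicate 4, which held 13 of its UMIs in *Nvwnt2*-positive cells, it was -3.90 (adjusted p = 0.00528). *Nvmucin* had 27.2, 36.1, 14.9 and 40.3 CPM in *Nvwnt2*-positive cells, against 80.4, 99.6, 97.8 and 87.3 CPM in *Nvwnt2*-negative cells. No value overlapped, and the log2 fold change was -1.50 ± 0.19 (edgeR adjusted p = 1.92e-04).

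Among neuronal markers *Nvelav* fell by 1.22 and *NvashA* fell by 1.64 on the log2 scale, with standard errors of 0.32 and 0.40 and edgeR adjusted p of 0.0169 and 0.0120. *Nvelav* was not called without replicate 1, 2 or 3, at log2 fold changes of -1.17, -1.09 and -1.02 and edgeR adjusted p of 0.0636, 0.0549 and 0.0762. *NvashA* was not called without replicate 3, at -1.53 and 0.0685, or by DESeq2, at -2.03 and 0.0548. Without replicate 4 both were further from 0, at -2.01 for *Nvelav* and -3.43 for *NvashA* (edgeR adjusted p of 0.00389 and 1.77e-04). *NvLWamide* had 9.06, 2.58, 33.5 and 136 CPM in *Nvwnt2*-positive cells, against 127, 138, 119 and 179 CPM in *Nvwnt2*-negative cells. Replicate 4 overlapped the *Nvwnt2*-negative values. The log2 fold change of -1.30 ± 0.49 did not pass (edgeR adjusted p = 0.0835), but it did with the library as a block, at -1.38 and an adjusted p of 0.00365. Without replicate 4 it was -3.31, at an adjusted p of 7.74e-05. *NvLWamide* was called in 6 of 19 alternatives, and DESeq2 did not call it, at -1.68 and an adjusted p of 0.278.

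*NvsnailA* had 15.9, 0, 7.45 and 23.5 CPM in *Nvwnt2*-positive cells, against 25.8, 30.3, 31.0 and 46.3 CPM in *Nvwnt2*-negative cells. The groups were apart, from 30 UMIs in *Nvwnt2*-positive cells. Its log2 fold change of -1.23 ± 0.40 lay just outside the threshold (edgeR adjusted p = 0.0509). With the library as a block it was -1.31 at an adjusted p of 0.00492, and without replicate 4 it was -1.81 at 0.0243. It was called in 8 of 19 alternatives. Among those without a call were cells thinned to 500 UMIs, at -0.85 and an edgeR adjusted p of 0.516, and leaving out replicate 3, at -1.15 and 0.156.

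*Nvath-like* had 20.4, 15.5, 26.1 and 15.7 CPM in *Nvwnt2*-positive cells, against 49.2, 49.8, 41.5 and 37.6 CPM in *Nvwnt2*-negative cells. Its log2 fold change was -1.29 ± 0.23 (edgeR adjusted p = 0.00168). It was not called with cells thinned to 500 UMIs or not thinned, at log2 fold changes of -0.48 and -0.23 and edgeR adjusted p of 0.550 and 0.186. *Nvmyc1* and *Nvnanos* did not pass, at log2 fold changes of -0.09 ± 0.26 and -0.57 ± 0.32 and edgeR adjusted p of 0.868 and 0.254. Of the progenitor markers only *Nvath-like* was therefore called in this comparison. *Nvnanos* was called in 1 of 18 alternatives, lower, at 2000 UMIs (-0.61, edgeR adjusted p = 0.0383). *Nvmyc1* was called in 1 of 19, higher, without thinning (0.52, edgeR adjusted p = 0.0114). Of the mitochondrial genes 9 were tested and 1 was higher, where 7.08% of all genes were, with a median log2 fold change of 0.16.

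**Figure D5:**
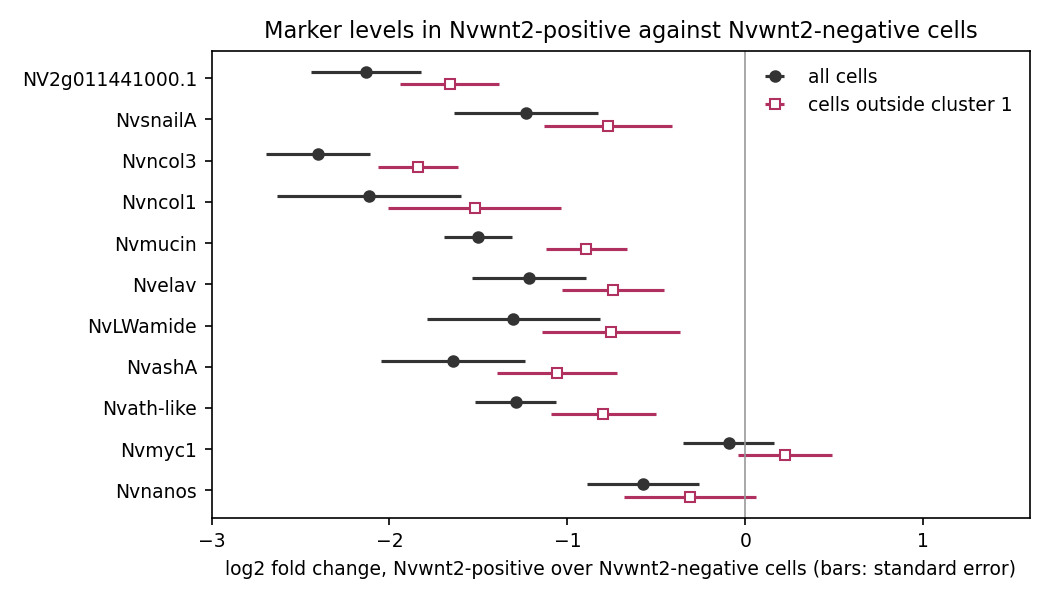
Log2 fold change of 11 markers (y axis) in *Nvwnt2*-positive over *Nvwnt2*-negative cells (x axis, bars are standard errors), for all cells (filled) and for cells outside cluster 1 (open). The open points include cells of low-quality clusters and cells left out of clustering. In all cells *Nvncol3* is at -2.40 and NV2g011441000.1 at -2.13, and *Nvmyc1* is at -0.09 in all cells and 0.22 outside cluster 1.

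Cluster 1 held 234, 243, 137 and 260 of the 442, 388, 269 and 894 *Nvwnt2*-positive cells of replicates 1 to 4. All clusters together, without the low-quality ones, held 357, 350, 221 and 733. The comparison was therefore repeated in all cells outside cluster 1, including those of low-quality clusters and those left out of clustering for their mitochondrial share. There 827 of 10080 genes changed (8.2%), 272 higher (2.7%) and 555 lower (5.51%). Of the 11 markers 3 were lower by the edgeR test. NV2g011441000.1 had a log2 fold change of -1.66 ± 0.28 (adjusted p = 0.00193), *Nvncol3* of -1.84 ± 0.23 (1.96e-04) and *Nvmucin* of -0.89 ± 0.23 (0.0220). *Nvncol1*, *Nvelav*, *NvashA* and *Nvath-like* did not pass there, at -1.52, -0.74, -1.06 and -0.80 and edgeR adjusted p of 0.0685, 0.135, 0.0680 and 0.120. With the library as a block *Nvncol1* and *NvashA* passed, at adjusted p of 0.00170 and 0.00684, and *NvLWamide* at 0.00915.

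Within cluster 1, where 872715 UMIs of *Nvwnt2*-positive cells were set against 1408000 UMIs of *Nvwnt2*-negative cells, 0 of 3544 genes passed the edgeR test (0%). At an unadjusted p under 0.05 there were 178 genes (5.02%) by edgeR and 62 by DESeq2, which also called 0. With the library as a block 15 genes passed, 10 higher and 5 lower. Before thinning 78.7% to 83.5% of cluster 1 cells had an *Nvwnt2* UMI, so many *Nvwnt2*-negative cells there had lost theirs to the draw. The comparison therefore cannot tell whether cluster 1 cells with and without *Nvwnt2* transcripts differ. Of the 11 markers only *Nvncol3* passed the filter on low counts within cluster 1, and it was not called, at a log2 fold change of -0.10 ± 0.33 (edgeR adjusted p = 1.00).

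The genes most like *Nvwnt2* across thinned cells were NV2g005238000.1 and NV2g018050000.1, for which no name is given in the sources used here. Likeness was the lowest of the 4 libraries' Pearson correlations of ln(1 + thinned UMIs), over 2078 to 5968 cells a library. It was 0.278 for NV2g005238000.1 and 0.272 for NV2g018050000.1, and of 17406 genes 25 were above 0.1 and 3 above 0.2. The cells of a library share its depth and preparation, so these values are a description. Those of the 11 markers lay between -0.105 for *Nvncol3* and 0.0119 for *Nvnanos* in any library.

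NV2g005238000.1 had 4196, 4194, 4069 and 3403 CPM in *Nvwnt2*-positive cells, against 1663, 1590, 1385 and 1525 CPM in *Nvwnt2*-negative cells. The groups did not overlap, and the log2 difference was 1.36 in all cells, 1.18 outside cluster 1 and 0.27 within it. For NV2g018050000.1 it was 1.05 in all cells. Both genes were chosen for their likeness to *Nvwnt2* in these same cells, so these values are given without a test.

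The largest rises among called genes were in 2 genes of low level. NV2g002938000.1 had 20.4, 15.5, 7.45 and 10.1 CPM in *Nvwnt2*-positive cells, against 1.67, 3.46, 3.87 and 4.34 CPM in *Nvwnt2*-negative cells. It changed by 1.92 ± 0.40 on the log2 scale. NV2g003314000.1 changed by 1.89 ± 0.32, and it was also among the 10 leading genes of cluster 1. Both genes were chosen as the largest rises of this same comparison. Only their *Nvwnt2*-positive sums brought them past the filter on low counts, so these values are a description and no p is given. Neither gene passed the filter on low counts, and so neither was tested, under another random draw of the thinning, at 500 UMIs, with a minimum of 2 *Nvwnt2* UMIs or outside cluster 1. NV2g002938000.1 was also not tested without replicate 4, without the highest-UMI barcodes, without low-quality clusters or with a minimum of 1000 genes.

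The largest falls were in NV2g002878000.1 and NV2g024894000.1. NV2g002878000.1 had 1 UMI in *Nvwnt2*-positive cells and 124 UMIs in *Nvwnt2*-negative cells, a ratio per UMI of 0.0493 with an exact 95% counting interval of 0.00124 to 0.280. With more UMIs per cell the difference was smaller, at a log2 fold change of -1.75 at 2000 UMIs and -1.10 without thinning, and under another random draw the gene did not pass the filter on low counts. NV2g024894000.1 had 2 and 223 UMIs, a ratio of 0.0549 (0.00661 to 0.201), and was not called under another random draw of the thinning (edgeR adjusted p = 0.102). Both genes were chosen as the largest falls in these same sums, and only their *Nvwnt2*-negative sums brought them past the filter. The intervals pool the libraries and leave out this choice, so they are a description and not a test.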

How the data were processed

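Per the labels and the paper's methods, the authors dissociated whole *N. vectensis* gastrulae at 24 hpf. They deposited unnormalized UMI counts from CellRanger for each gene and barcode, 1 matrix per library. The matrix headers name CellRanger 6.1.2 and the submitters' processing notes Cell Ranger 7.1.1 and Seurat 4. The paper's methods name another version, with default parameters and alignment to introns and exons. Whether these settings made the matrices was not given. The genome build was not given in the sources used here. A RefSeq gene table matched 0 of the 24526 IDs. Of 13 listed IDs 12 had a row, and *NvNgal* was not analysed here, so 11 markers were compared. No doublets were removed; leaving out the barcodes with the most UMIs, 0.8% per 1000 barcodes, was an alternative.

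Barcodes with at least 500 genes were kept. Clustering also left out barcodes over 10% on the 10 listed mitochondrial genes and used Seurat 5.3.0 (4000 variable genes less the markers, 30 principal components, resolution 0.5). Clusters with a median of genes under 50% of that of all cells and no marker among 50 leading genes were removed as low quality. Cells thinned to 1000 UMIs were summed per library, and edgeR 4.0.16 tested the sums by quasi-likelihood (TMM, filterByExpr, Benjamini-Hochberg at 0.05). Standard errors are the absolute log2 fold change over the square root of F. DESeq2 1.42.0 in R 4.3.3 was an alternative, shares were tested in scipy 1.17.1, and the fit was tested on simulated data. Genes named are *Nvwnt2*, the listed markers, the 2 largest rises and falls among called genes that moved alike in 4 of 4 libraries, and the 2 most like *Nvwnt2*. Members, lists and the 5-fold rule for naming clusters were chosen with earlier results of these data known. The comparisons within and outside cluster 1, without shared barcodes and without low-quality clusters were added after seeing the data.

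The *Nvwnt2*-positive and *Nvwnt2*-negative sum of the same number are from the same library and so are paired. Their deviations from the mean of each group correlated at 0.369, 0.154, 0.0877 and 0.357 in replicates 1 to 4.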

Additional observations from a re-analysis of the deposited data

Results flagged for a closer look

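Of 88 sets of 4 library values, 6 had 1 library far from the other 3. Replicate 4 was the highest in 5 of these 6. For independent values chance gives about 1 in 20, but these sets share markers, cells and libraries, so that rate is only a guide. The share of *Nvwnt2*-positive cells with *Nvncol3* was 26.1% there, against 7.81% to 9.50% in the others. For *NvLWamide* that share was 5.93%, against 0.258% to 1.12%. The share of *Nvwnt2*-negative cells with *NvsnailA* was 4.20%, against 2.55% to 2.76%. NV2g002878000.1 and NV2g024894000.1 had 1.12 and 2.24 CPM in *Nvwnt2*-positive cells of replicate 4 and 0 in the others, from 1 and 2 UMIs. Both were chosen as the largest falls, and with 0 in the others any UMI is flagged. Replicate 4 was the lowest for NV2g005238000.1 in *Nvwnt2*-positive cells, at 3403 CPM against 4069 to 4196 CPM.

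Barcodes under 500 genes, which entered no comparison, also held *Nvwnt2*. They had 112, 88.7, 101 and 123 CPM in replicates 1 to 4 (106 ± 14.8, SD, n = 4), against 167 ± 12.4 CPM in cells. At least 1 *Nvwnt2* UMI was found in 7.01%, 5.10%, 6.22% and 7.14% of them, at median depths of 608 to 634 UMIs.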

How the results depend on the processing

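The log2 fold changes of the 7 called markers stayed below 0 in each alternative in which they were tested, while counts of genes moved with depth. Thinning to 500 UMIs gave 222 genes higher and 415 lower (637 in all), thinning to 2000 UMIs 1596 and 1961 (3557), and no thinning 3946 and 4176 (8122). A minimum of 2 *Nvwnt2* UMIs gave 423 higher. Without cluster 1 there were 272 and 555 (827). Leaving out 1 library gave 401 to 602 genes higher, 728 to 1047 lower and 1129 to 1649 in all. The lowest of these was without replicate 2. With the library as a block 1019 were higher and 1380 lower (2399 in all), and the block changed no other marker call in all cells than the ones given for *NvsnailA* and *NvLWamide*.

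*Nvmyc1* had a log2 fold change of 0.52 without thinning, 0.10 with another draw, 0.22 without cluster 1, 0.00365 without replicate 1 and 0.0117 without replicate 2, at an edgeR adjusted p of 0.0114 without thinning and of 0.717 to 0.998 in the other 4. Without replicate 4 it was -0.43 (adjusted p = 0.473). *Nvnanos* had 0.19 without thinning (edgeR adjusted p = 0.0960) and -0.61 at 2000 UMIs (edgeR adjusted p = 0.0383). Unthinned shares were higher in *Nvwnt2*-positive cells by 1.61 percentage points for *Nvncol3*, 2.68 for *Nvelav*, 0.0781 for *NvLWamide*, 3.04 for *Nvath-like*, 6.84 for *Nvmyc1* and 3.45 for *Nvnanos*. In cells thinned to 1000 UMIs, shares without cluster 1 were higher by 0.354 for *Nvmyc1* and 0.0598 for *Nvnanos*. The number of markers whose joint detection passed was 7 at 2000 UMIs and 8 with a minimum of 2 *Nvwnt2* UMIs, both lower in *Nvwnt2*-positive cells. They included *Nvnanos* at 2000 UMIs and *Nvmyc1* with a minimum of 2, at adjusted exact permutation p of 0.0449 and 0.0393. Such a pass depends on how many markers tie at the smallest p, and says little about the single marker.

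The mean thinned share of *Nvwnt2*-positive cells was 7.92% at 500 UMIs and 22.0% at 2000 UMIs. The share of *Nvwnt2* UMIs in the highest cluster was 41.4% at a resolution of 1.0 and 47.5% with 2000 variable genes. Low UMI numbers of *Nvncol1*, *NvashA* and *Nvelav* in *Nvwnt2*-positive cells limit their precision. The cause of these shifts was not tested.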
